A study of Homo sapiens with 4 samples.

Results

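The small nucleolar RNAs (snoRNAs) and small Cajal body RNAs (scaRNAs) were described in MV4-11 cells, an acute myeloid leukaemia line, that carried hairpins against RUNX1 or a control hairpin. Members were the gene symbols starting SNORA, SNORD or SCARNA that were the single symbol of a probe set and had a log2 signal above the median of the deposited table, about 3.1, in at least 1 of the 4 arrays. Of 238 such symbols with a probe set of their own, 151 passed that limit and 87 did not, and the same rule left 14839 genes of all kinds. The members comprised 53 box H/ACA RNAs (SNORA), 81 box C/D RNAs (SNORD) and 17 scaRNAs. Where a symbol had several probe sets, the one with the highest mean was taken.

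Each hairpin was measured on 1 array: RUNX1 knockdown labelled moderate, RUNX1 knockdown labelled profound 1, RUNX1 knockdown labelled profound 2, and the control hairpin against luciferase. Cells of all 4 groups, the control among them, were transduced and then given doxycycline at 3 µM over 24 h. The values are log2 signals, and a difference of 1 is a 2-fold difference. With 1 array per hairpin there is no spread between replicates, so no test was possible, the number of arrays limits the precision, and every count below rests on size alone. The 3 comparisons with control share the control array, so their values are given side by side and are not independent.

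Box C/D and box H/ACA RNAs are guides that pair with ribosomal RNA in the nucleolus. Box C/D particles carry the methyltransferase fibrillarin (FBL) and methylate ribose, and box H/ACA particles carry dyskerin (DKC1) and convert uridine to pseudouridine. ScaRNAs stay in Cajal bodies and guide the same modifications on the small nuclear RNAs of the spliceosome, and most human members of these classes are cut out of introns of host genes.

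RUNX1 itself, read by a probe set shared with LOC100506403, had log2 signals of 4.33, 4.07 and 4.04 in the arrays labelled moderate, profound 1 and profound 2, and 4.27 in control. The difference from control was 0.06 for moderate, -0.19 for profound 1 and -0.22 for profound 2, so the signal was not below control in the array labelled moderate. The description field names RUNX2 for profound 1 and RUNX3 for profound 2, whereas title and genotype name RUNX1, and the arrays are therefore called by their genotype labels. The medians of the arrays agree to within 0.02, as quantile normalisation makes them. Of the markers of the line, 7 of 9 were measured and all 7 were above the limit. The brightest were LYZ at 11.34 to 11.57 and FLT3 at 9.28 to 9.46. The dimmest were MPO at 5.10 to 5.48 and ITGAM at 3.78 to 3.89. Of 8 measured markers of other cell types, KRT8 at 3.84 to 4.46 and COL1A1 passed the limit and the other 6 did not.

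In the array labelled moderate, snoRNAs of both classes were mostly below control by a small amount. Of the 151 members, 115 (76.2%) were below control, where 48.3% of all genes were. The median difference was -0.18, with a middle 50% of -0.32 to -0.01, against a median of 0.01 over all genes. In the array labelled profound 1, 101 members (66.9%) were below control with a median of -0.11, against 49.9% and 0.00 over all genes. In the array labelled profound 2, 75 members (49.7%) were below control with a median of 0.00, against 49.9% of all genes. The members' share in profound 2 therefore lay at the share of all genes.

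The classes had like medians in the array labelled moderate. The H/ACA RNAs had a median of -0.18 with 40 of 53 below control, the C/D RNAs -0.18 with 63 of 81 below, and the scaRNAs -0.20 with 12 of 17 below. In profound 1 the C/D RNAs had a median of -0.14 with 58 below control, the H/ACA RNAs -0.09 with 35 below, and the scaRNAs 0.00 with 8 of 17 below. In profound 2 the medians were -0.02, 0.02 and 0.04, with 43 C/D RNAs, 25 H/ACA RNAs and 7 scaRNAs below control. The 388 microRNA genes had medians of 0.02, 0.05 and 0.02 in moderate, profound 1 and profound 2 against control, and the 967 long noncoding RNA genes 0.02, 0.04 and 0.02. The 14 small nuclear RNA genes had medians of -0.08, -0.07 and 0.16, with 9, 8 and 3 below control, and in profound 1 their median was close to the H/ACA median. At 1.5-fold 0, 6 and 1 of these 14 passed, where 2.06%, 7.26% and 3.24% of all genes did. The 12517 protein-coding genes had a median of 0.01 in moderate.

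**Figure D1:**
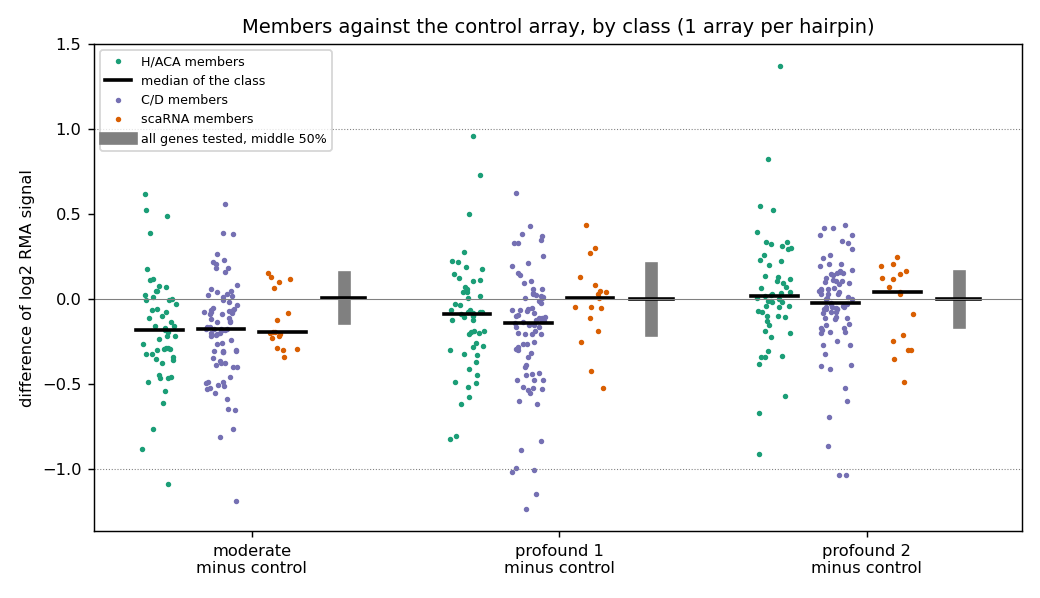
Difference of log2 signal from control (vertical axis) for each member, by array and class, with the class median as a black line and the middle 50% of all genes in grey. Moderate has medians of -0.18 (H/ACA), -0.18 (C/D) and -0.20 (scaRNA), profound 2 of 0.02, -0.02 and 0.04.

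The counts differed with signal level. Among the 78 members with a mean above 6, 66 (84.6%) were below control in moderate, against 50.4% of the 5890 genes above 6. In profound 1 it was 52 members, against 52.8% of genes, and in profound 2 it was 34, against 52.7% of genes. Of the 22 H/ACA RNAs above 6, 21 were below control in moderate, with a median of -0.29, and SNORA24, in the noncoding host SNHG8, was the exception at 0.05. Of the 48 C/D RNAs above 6, 40 were below control in moderate with a median of -0.13. Of the 8 scaRNAs above 6, 5 were below control in moderate.

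Some of the brighter H/ACA RNAs are given as examples from the larger end of this difference. SNORA71A, SNORA49 and SNORA50A were at -0.46, -0.36 and -0.38 against control in moderate. The 22 H/ACA RNAs above 6 had a median of -0.29 and a lower quartile of -0.36, so these 3 are not typical. SNORA71A, in an intron of SNHG17, had signals of 8.59, 8.97 and 8.92 in moderate, profound 1 and profound 2 and 9.05 in control. SNORA49 had 8.71, 9.03 and 9.09, and 9.07 in control. SNORA50A had 7.93, 8.35 and 8.44, and 8.31 in control. In all 3 the array labelled moderate was the lowest, by 0.3 or more, and the other arrays lay close together. SNORA24 had 9.61, 9.50 and 9.59, and 9.56 in control, with no array apart.

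Some of the bright C/D RNAs were steadier. SNORD13, the U13 RNA, which pairs with the precursor of the small ribosomal subunit RNA, had 12.30, 12.29 and 12.35 in moderate, profound 1 and profound 2 and 12.34 in control. SNORD41 had 10.57, 10.65 and 10.58, and 10.54 in control. Both had a spread over the arrays of under 0.3. SNORD3C, a copy of the U3 RNA of ribosomal RNA cleavage, had 9.28, 9.40 and 9.63, and 9.66 in control, and moderate was its lowest array.

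The array labelled moderate was the lowest of the 4 for 67 of 151 members (44.4%), against 20.3% of all genes. That held for 38 C/D RNAs, 21 H/ACA RNAs and 8 scaRNAs. Profound 1 was the lowest for 47 members (31.1%), against 31.4% of genes, profound 2 for 22 (14.6%), against 24.3%, and control for 15 (9.93%), against 23.9%. The highest array was profound 2 for 58 members (38.4%), against 24.5% of genes, and control for 55 (36.4%), against 22.5%. Profound 1 was the highest for 20 members and moderate for 18, against 30.3% and 22.7% of genes.

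**Figure D2:**
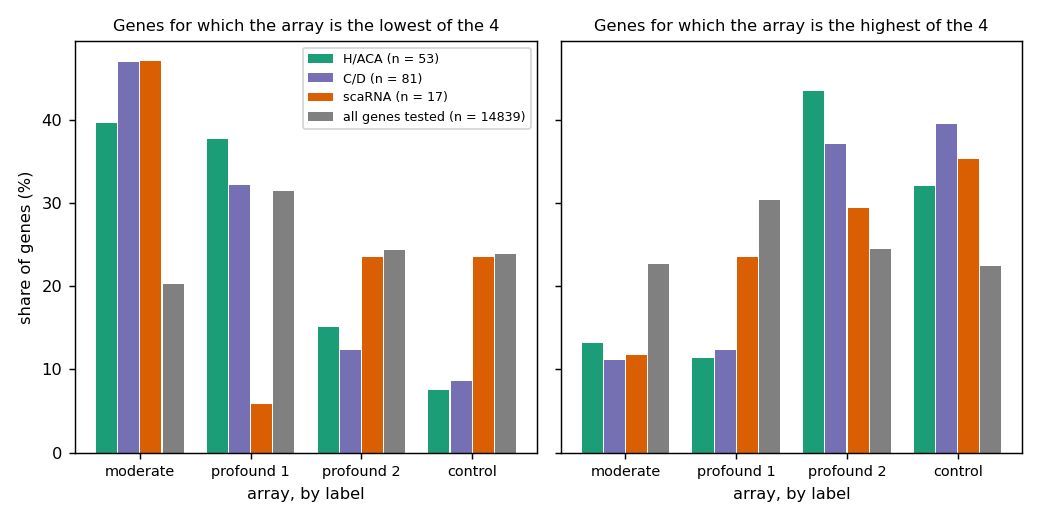
Share of genes (vertical axis, percent) for which each array had the lowest signal (left) or the highest signal (right), for the 3 classes and for all genes. Moderate is the lowest array for 44.4% of members and 20.3% of all genes, and profound 2 the highest for 38.4% and 24.5%.

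Few members differed from control by a large factor. In moderate 2 members were at least 2-fold lower and 0 were higher, where 0.0809% of all genes were lower, 0.101% higher and 0.182% either. At 1.5-fold it was 10 lower and 1 higher of 151 (7.28%), where 0.856% of genes were lower, 1.21% higher and 2.06% either. The 10 were 6 C/D and 4 H/ACA RNAs, and no scaRNA. The 388 microRNA genes passed 1.5-fold in 10.1% in moderate, 14.2% in profound 1 and 12.9% in profound 2, in each a larger share than that of the members. The spread also differed with level. For means up to 6, differences from control had a robust SD of 0.33, 0.37 and 0.34 over 73 members in moderate, profound 1 and profound 2, against 0.23, 0.28 and 0.25 over 8949 genes. Above 6 it was 0.18, 0.22 and 0.16 over 78 members, against 0.13, 0.25 and 0.15 over 5890 genes, so that the bright members spread less than other genes in profound 1.

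The lowest of all members relative to control in moderate was SNORD72, in an intron of the ribosomal protein gene RPL37, with 3.73, 4.09 and 4.32 in moderate, profound 1 and profound 2 and 4.93 in control. All 3 RUNX1 hairpin arrays were below control, by -1.19, -0.84 and -0.60, and the smallest of these gaps was 1.52-fold. SNORA70D had 3.39, 4.11 and 4.59, and 4.48 in control, so that moderate was 2.13-fold lower and profound 2 lay 0.10 above control. SNORD9 had 5.77, 6.05 and 6.69, and 6.59 in control. SNORA47 had 6.79, 7.37 and 7.48, and 7.56 in control. For SNORA70D, SNORD9 and SNORA47 moderate was the lowest array and profound 2 the one nearest control.

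The members furthest above control in moderate had means below 6. SNORA11B had 4.18, 3.75 and 3.83 in moderate, profound 1 and profound 2 and 3.57 in control, a 1.53-fold higher value in moderate. SNORA78, in the noncoding host SNHG9, had 5.74, 5.09 and 5.41, and 5.21 in control. SNORA70E had 3.37, 2.99 and 3.17, and 2.88 in control, and passed the limit in 2 arrays. SNORD116-23 had 3.52, 2.88 and 3.06, and 2.96 in control, and entered the list through moderate alone, where it is high, so that its difference of 0.56 is given as a description.

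In the array labelled profound 1, 4 members were at least 2-fold lower than control and 0 higher, where 0.526% of genes were lower, 0.377% higher and 0.903% either. At 1.5-fold, 12 were lower and 3 higher (9.93% of members), where 4.12% of genes were lower, 3.14% higher and 7.26% either, a share not far from that of the members. Profound 2 had 2 members 2-fold lower and 1 higher, where 0.0943% of genes were lower, 0.155% higher and 0.249% either. At 1.5-fold profound 2 had 7 lower and 2 higher (5.96%), where 1.56% of genes were lower, 1.68% higher and 3.24% either. SNORD11B, counted as 2-fold lower in each array, passed the limit in control alone, so it had to be lower elsewhere. Among the 145 members above the limit in all 4 arrays, 3 (2.07%) differed 2-fold in profound 1 and 2 (1.38%) in profound 2. Of the 13034 genes above it in all 4 arrays, 0.744% and 0.0844% did.

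In both profound arrays together 1 member was 2-fold lower and 0 higher, where 0.0202% of genes were lower, 0.027% higher and 0.0472% either. That member was SNORD11B, and among the 145 members above the limit in all arrays the count was 0. At 1.5-fold it was 4 lower and 2 higher (3.97%), where 0.499% of genes were lower, 0.559% higher and 1.06% either. By any amount, 65 members (43.0%) were below control in both, where 32.2% of genes were, and 40 (26.5%) were above it in both, where 32.4% were.

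SNORA38B was the member highest above control in both profound arrays. It lies in NOL11, whose protein takes part in making the small ribosomal subunit, and had 7.02, 8.87 and 9.27 in moderate, profound 1 and profound 2 and 7.90 in control. The difference from control was -0.89 in moderate, 0.96 in profound 1 and 1.37 in profound 2, or 2.59-fold higher in profound 2. Control lay between moderate and both profound arrays, and no arrays coincided. SNORA22 had the same order with smaller steps, 8.29, 9.30 and 9.40, and 8.57 in control. The profound arrays were 1.66-fold and 1.77-fold above control for SNORA22.

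Smaller values of the same kind were seen in other members. SNORA23, in the importin gene IPO7, had 7.76, 8.32 and 8.62 in moderate, profound 1 and profound 2 and 8.09 in control. SNORA80A had 4.94, 5.37 and 5.73, and 5.18 in control. SNORD94, in PTCD3, had 4.82, 5.39 and 5.34, and 5.01 in control. These 3 had moderate below control and both profound arrays above it. SNORD88C had 5.24, 5.66 and 5.66, and 5.23 in control, with moderate at the control value. SNORD59B, in the ATP synthase gene ATP5F1B, was higher by 0.26, 0.35 and 0.30 in moderate, profound 1 and profound 2.

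Of the 5 members lowest in both profound arrays, 4 were C/D RNAs, a class that makes up 81 of all 151 members. SNORD11B, in NOP58, had 2.69, 1.97 and 2.18 in moderate, profound 1 and profound 2 and 3.21 in control, and it is the single member at 2-fold in both profound arrays. It passed the limit in control alone, so that it had to be lower elsewhere. SNORD1B, in SNHG16, had 3.93, 3.90 and 3.48, and 4.52 in control, and every RUNX1 hairpin array was at least 1.5-fold below control. SNORD116-30 had 5.70, 4.87 and 5.19, and 5.88 in control. SNORA16B was the lowest H/ACA RNA of this comparison, with 4.50, 4.46 and 4.28, and 4.95 in control.

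Other members were low in 1 of the profound arrays. SNORD1A, the neighbour of SNORD1B in SNHG16, had 5.02, 4.39 and 5.34 in moderate, profound 1 and profound 2 and 5.53 in control. SNORD93 had 5.94, 5.49 and 6.17, and 6.49 in control. SNORD99, in SNHG12, had 4.56, 3.73 and 4.84, and 4.73 in control. For SNORD1A, SNORD93 and SNORD99 profound 1 was the lowest array, and for SNORD99 the remaining arrays lay within 0.3. SNORA60 had 3.84, 4.49 and 3.47, and 4.38 in control, with profound 2 the lowest. SNORD116-11 was also lowest in profound 2, with 3.25, 3.58 and 2.84, and 3.71 in control.

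**Figure D3:**
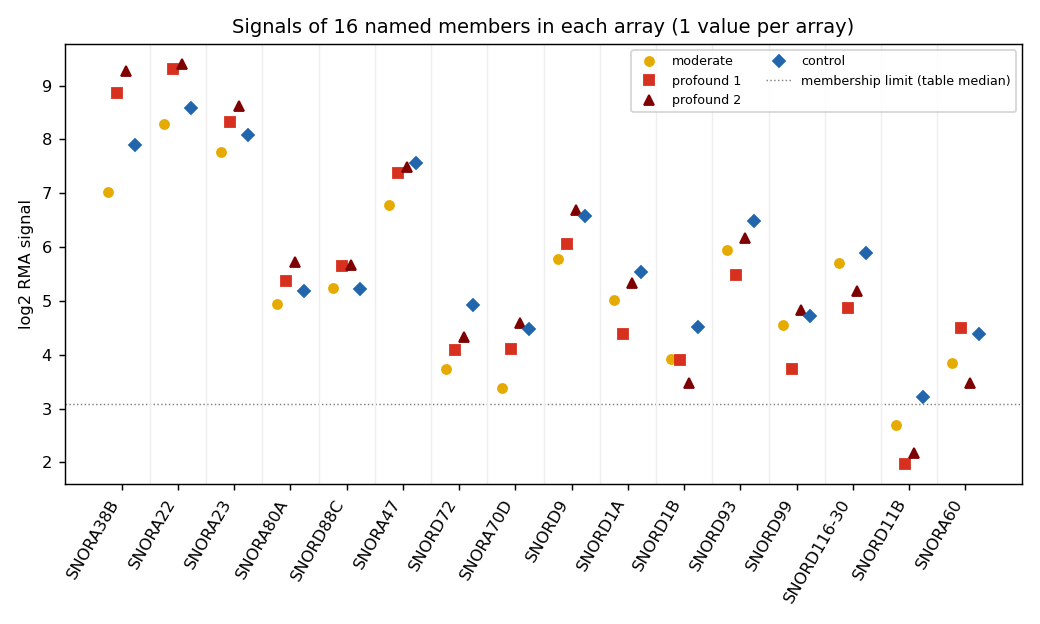
Log2 signal (vertical axis) of 16 named members in each of the 4 arrays, 1 point per array, with the membership limit as a dotted line. SNORA38B has 7.02 in moderate, 8.87 and 9.27 in the profound arrays and 7.90 in control.

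The profound hairpins also differed from each other. Profound 1 was below profound 2 for 107 of 151 members (70.9%), where 50.7% of genes were, with a median difference of -0.12 against -0.01 over all genes. This comprised 60 of 81 C/D RNAs (median -0.14), 38 of 53 H/ACA RNAs (median -0.11) and 9 of 17 scaRNAs (median -0.01). The 14 small nuclear RNA genes were alike, with 11 below and a median of -0.17. At 2-fold 1 member was higher (SNORA60) and 1 lower (SNORD99) in profound 1, where 0.31% of genes were higher, 0.317% lower and 0.627% either. At 1.5-fold it was 2 higher and 9 lower, where 2.62% of genes were higher, 3.15% lower and 5.78% either. SNORD121A had 3.51 in profound 1 and 4.46 in profound 2. SNORA26, in DANCR, had 4.66 in profound 1 and 5.51 in profound 2. SNORA31 had 3.09 in profound 1 and 3.87 in profound 2, and for all 3 the profound 2 value lay within 0.1 of control. SNORD7 was among the highest, with 4.02 in profound 1 and 3.62 in profound 2.

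Against the array labelled moderate, 74 of 151 members (49.0%) were above it in both profound arrays, where 29.9% of genes were, and 33 members were below it in both, where 32.3% of genes were. The class medians of the mean profound value minus moderate were 0.10 for H/ACA, 0.09 for C/D and 0.13 for scaRNAs, against -0.01 for all genes. SNORA38B was above moderate by 1.85 in profound 1 and 2.26 in profound 2, and SNORA22 by 1.02 and 1.11. These were the 2 members at least 2-fold higher in both, where 0.0472% of genes were higher, 0.0472% lower and 0.0943% either. SNORA70D made it 3 at 1.5-fold, where 0.478% of genes were higher, and 0 members were 1.5-fold lower in both, where 0.6% were lower and 1.08% either. SNORD19, in the nucleostemin gene GNL3, was among the lowest against moderate, with 4.58 in profound 1, 4.39 in profound 2 and 4.99 in moderate.

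Of the 17 scaRNAs, 0 reached 1.5-fold in any comparison with control. Over all genes 2.06%, 7.26% and 3.24% did in moderate, profound 1 and profound 2, and over so few members 0 lies near these shares. SCARNA17, in SNHG22, had 7.69, 7.97 and 7.66 in moderate, profound 1 and profound 2 and 7.54 in control, the highest difference of the class at 0.43 in profound 1. SCARNA27 had 5.00, 4.71 and 4.93, and 5.23 in control, the lowest at -0.53 in profound 1. SCARNA2, which has a promoter of its own and lies in no RefSeq gene, had 6.51, 6.66 and 6.63, and 6.38 in control. SCARNA2, SCARNA4, SCARNA17 and SCARNA21 were above control in all 3 RUNX1 hairpin arrays. SCARNA3, SCARNA7, SCARNA8, SCARNA9L, SCARNA20 and SCARNA27 were below control in all 3. Control was thus the lowest array for 4 scaRNAs (23.5%), where it was for 23.9% of all genes, so that count lay at the share of all genes. It was the highest array for 6 (35.3%), where it was for 22.5% of all genes.

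A pair of scaRNAs lies in ATG16L1. SCARNA5 had 6.36, 6.56 and 6.76 in moderate, profound 1 and profound 2 and 6.55 in control, and SCARNA6 had 4.81, 5.08 and 5.20, and 5.00 in control. Both had moderate lowest and profound 2 highest. SCARNA15 had 3.67, 3.13 and 3.06, and 3.55 in control. SCARNA10, SCARNA11, SCARNA22 and SCARNA23 stayed between -0.29 and 0.17 of control in every array. Moderate was below both profound arrays for 10 of the 17 (58.8%), and for 29.9% of all genes.

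The largest copy family was SNORD116, an imprinted C/D cluster in SNHG14 that is expressed from the paternal chromosome. Its 14 measured copies had median differences from control of -0.15, -0.12 and -0.12 in moderate, profound 1 and profound 2, with 9, 11 and 12 copies below control. Over all genes 48.3%, 49.9% and 49.9% were below control in these arrays. Near-identical copies can share probes, and copies of the same cluster are not independent. SNORD116-15 had 10.08, 10.19 and 10.25, and 10.30 in control. SNORD116-24 had 9.18, 9.26 and 9.41, and 9.56 in control. SNORD116-20 had 7.66, 7.69 and 7.70, and 7.75 in control. These 3 copies were below control in every RUNX1 hairpin array. SNORD116-21, also bright, was not: it had 8.54, 8.55 and 8.35, and 8.46 in control, above control in moderate and profound 1.

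The dim copies of SNORD116 scattered more widely. The range over the 14 copies was -0.46 to 0.56 in moderate, -1.02 to 0.63 in profound 1 and -0.87 to 0.10 in profound 2. SNORD116-13 had 4.28, 4.51 and 3.93, and 3.89 in control, above control where SNORD116-30 was below it. Of the 4 SNORA70 copies, SNORA70D was at -1.09 in moderate while SNORA70G had 5.92, 6.04 and 5.76, and 5.53 in control. The 3 SNORD114 copies of the imprinted cluster in MEG8 were above control in both profound arrays, where 32.4% of all genes were. SNORD114-27, for example, had 5.90, 6.09 and 6.48, and 6.07 in control.

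**Figure D4:**
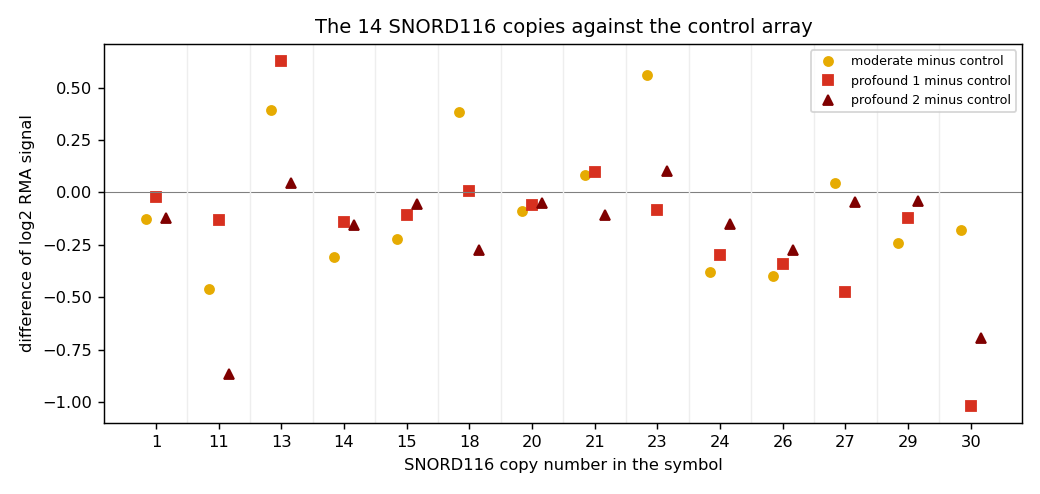
Difference of log2 signal from control (vertical axis) for the 14 SNORD116 copies (horizontal axis, number in the symbol) in moderate, profound 1 and profound 2. Most points lie below 0, and copies 30 and 11 reach the lowest values, -1.02 in profound 1 and -0.87 in profound 2.

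All 151 members matched the RefSeq gene table of GRCh38.p14, in which 126 lie inside 1 other gene, 16 inside several and 9 inside none. The table has no strand, so a containing gene was taken by position alone. RefSeq lengths had medians of 90 bases for C/D, 135 for H/ACA and 138 for scaRNAs. A probe set inside an intron may also read unspliced host RNA, which cannot be told apart from the mature member. For 86 members, 69 containing genes had a probe set of their own above the limit.

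The containing genes differed less than the members in moderate. Their median difference was -0.04, against -0.20 for the members in them, and the member was lower than its gene in 61 of 86 pairs. In profound 1 the gene median was -0.11 and the member median -0.10, with 44 of 86 members lower, and in profound 2 the medians were -0.01 and 0.03, with 38 lower. Of the 69 containing genes, 45, 47 and 38 were below control in moderate, profound 1 and profound 2. Over all genes 48.3%, 49.9% and 49.9% were. At 1.5-fold 1, 2 and 0 of the 69 containing genes passed, against 10, 11 and 5 of the 86 members, where 2.06%, 7.26% and 3.24% of all genes did. Containing genes and members were not matched for signal level, and dim genes spread more. In moderate the robust SD over all genes was 0.23 for means up to 6 and 0.13 above 6. Pearson's r between gene and member differences over the 86 pairs was 0.21, 0.10 and 0.08, and Spearman's rho 0.20, 0.10 and 0.16, as a description of pairs that share arrays.

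**Figure D5:**
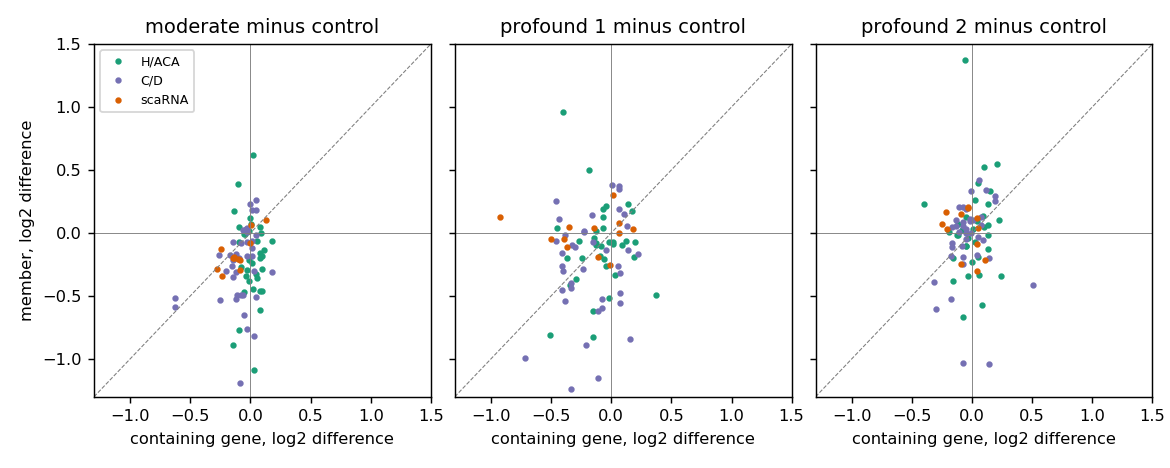
Difference from control of the member (vertical axis) against that of its containing gene (horizontal axis), on the log2 scale, for 86 pairs in each RUNX1 hairpin array. The points spread more along the member axis, and Pearson's r is 0.21 in moderate, 0.10 in profound 1 and 0.08 in profound 2.

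Many snoRNA hosts start transcription in a stretch of pyrimidines, the terminal oligopyrimidine start known from ribosomal protein genes. The starts of 4 containing genes of members named above are shown because 3 of them have such a run and NOL11, which holds SNORA38B, does not. Each is 30 bases before and 30 from the RefSeq start (GRCh38.p14), 5′ to 3′, and capitals mark a C followed by at least 5 C or T that begins within 5 bases of the start.
SNHG12, chr1:28581844-28581903, minus strand: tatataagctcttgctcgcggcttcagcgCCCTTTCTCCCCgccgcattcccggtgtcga
TPT1, chr13:45341154-45341213, minus strand: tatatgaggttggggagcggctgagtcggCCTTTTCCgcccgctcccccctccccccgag
SNHG16, chr17:76557734-76557793, plus strand: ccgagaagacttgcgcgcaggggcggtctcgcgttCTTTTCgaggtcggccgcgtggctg
NOL11, chr17:67717906-67717965, plus strand: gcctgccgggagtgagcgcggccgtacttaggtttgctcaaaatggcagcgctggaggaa

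Such a run was found at the start of 25 of 97 containing genes in the promoter table (25.8%) and of 3017 of all 27305 genes there (11.0%). The 25 members inside genes with a run had medians of -0.22, -0.16 and -0.04 in moderate, profound 1 and profound 2 against control, with 23, 20 and 14 below. The 92 members inside genes without one had -0.18, -0.08 and 0.01, with 65, 58 and 44 below. The difference between the sets was small beside their ranges, -0.59 to 0.23 with a run and -1.09 to 0.62 without one in moderate.

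Single pairs show how member and host compare. SNHG16, the noncoding host of SNORD1A and SNORD1B, had 8.22, 8.73 and 8.99 in moderate, profound 1 and profound 2 and 8.85 in control. In moderate the host was at -0.63, SNORD1A at -0.52 and SNORD1B at -0.59. In profound 1 the host was at -0.11 while SNORD1A was at -1.15. SNHG12 had 7.17, 6.62 and 7.33, and 7.34 in control, so that it and SNORD99 were both lowest in profound 1. NOL11 had 9.04, 8.78 and 9.13, and 9.19 in control, and lay below control in all 3 RUNX1 hairpin arrays, whereas SNORA38B was above control in both profound arrays. LINC03006, which contains SNORA22, and MEG8 were below the limit in every array.

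Members could depart from their host. ZFAS1 had 9.17, 9.23 and 8.99 in moderate, profound 1 and profound 2 and 9.15 in control, while its members SNORD12, SNORD12B and SNORD12C were at -0.32, -0.56 and -0.48 in profound 1. GAS5, by contrast, lay below control together with its members in profound 1. It had 8.90, 8.52 and 8.81, and 8.92 in control. In profound 1 GAS5 was at -0.41, SNORD75 at -0.26 and SNORD78 at -0.16. RPL37 had 7.30, 7.54 and 7.09, and 7.39 in control, beside a SNORD72 difference of -1.19 in moderate. CHD8 had 7.52, 7.11 and 7.36, and 7.49 in control, with SNORD8 at -0.30 and SNORD9 at -0.81 in moderate. The 9 members inside no gene had medians of -0.08, -0.06 and 0.12.

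The RNA signals of genes for the particle proteins showed small differences. Of the H/ACA core, NHP2 was at -0.13, -0.28 and -0.10 against control in moderate, profound 1 and profound 2. Signals of NOP10 were 8.74, 8.51 and 8.68, and 8.76 in control, and those of GAR1 6.12, 5.95 and 5.86, and 6.04 in control. Of the C/D core, FBL had 10.36, 10.25 and 10.40, and 10.36 in control, NOP58 10.10, 9.88 and 10.14, and 10.22 in control, and SNU13 5.10, 5.20 and 5.49, and 5.48 in control. DKC1 and NOP56 had no probe set of their own. None of the core, of the 11 assembly factors, of the 7 Cajal body and nucleolar proteins or of the 9 intron and end processing factors reached 1.5-fold against control. Over all genes 2.06%, 7.26% and 3.24% did in moderate, profound 1 and profound 2, so that none among so few lies near these shares. The median of the assembly factors was -0.06, -0.02 and -0.02, and that of the intron and end processing factors -0.09, -0.07 and -0.01. The H/ACA core had -0.02, -0.25 and -0.10, and the C/D core -0.12, -0.28 and 0.00. The Cajal body and nucleolar proteins had 0.05, -0.27 and -0.09. In profound 1 all measured genes of these last 3 lists were below control, where 49.9% of all genes were. So were 6 of the 11 assembly factors and 8 of the 9 processing factors. The furthest from control among these factors was TOE1, a nuclease that trims RNA ends, at -0.52 in profound 1.

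Of 40 noncoding and related host genes on the list, 18 were measured and 15 passed the limit. In moderate 1 of them was 1.5-fold lower, SNHG16, where 0.856% of genes were. In profound 1 it was SNHG1 at -0.64 and SNHG12 at -0.72, where 4.12% of genes were, and in profound 2 it was 0. None was 1.5-fold higher.

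There were 6 members with several probe sets, of which those of SNORA21 disagreed most. Its 2 probe sets differed from control by -0.49 and -0.15 in moderate, and they lay within 0.01 of each other in profound 1. The probe sets of SNORA38, SNORD117 and SNORD32B stayed within 0.06, and those of SNORA11E and SNORA15 held identical values. Just outside the limit were SCARNA1, with a highest signal of 3.06, and SCARNA18, with 3.05, and no member lay within 0.05 above it. In all, 145 members were above the limit in all 4 arrays and 6 in some of them.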

How the data were processed

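Per the labels' protocols, column-purified total RNA of transduced MV4-11 cells was made into biotinylated cDNA. Values of 4 arrays and 53617 probe sets are log2 signals as deposited. The submitters' processing notes name RMA, Affymetrix Expression Console (1.3.1) and the Transcriptome Analysis Console (1.0). The files' build is not given in the sources used here. Positions come from the RefSeq table of GRCh38.p14. Quantile normalisation hides a shift of most genes, RMA compresses dim probe sets, and recovery of short RNAs on the column was not measured. Names came from the platform annotation (23871 probe sets with 1 symbol, 1842 with several, 27904 with none). The 174 snoRNA or scaRNA probe sets with several symbols entered as an alternative alone.

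Members, lists and rules were chosen with earlier results of these data known. Named members are all scaRNAs, the 5 furthest each way in each comparison, members beyond all other arrays, those nearest the limit, large families and those with several probe sets. SNORA71A, SNORA49, SNORA50A, the steady bright members and the host pairs were picked after their values were seen. Differences of deposited values were called at 2-fold and 1.5-fold, with no test. The robust SD is the scaled median absolute deviation. Scripts ran in Python 3.11.15 with pandas 2.3.3 and numpy 2.4.6, and limma 3.58.1 in R 4.3.3 made the loess alternative. They were tested on simulated data.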

Additional observations from a re-analysis of the deposited data

How the results depend on the processing

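No paired analysis was possible because each hairpin has 1 array, and the arrays share the replicate number 1 alone. The 18 class medians were recomputed under 7 alternatives each, and all 126 values moved by less than 0.178, with a largest shift of 0.08. That limit is the robust SD of moderate minus control over all genes. It is a spread of single genes and larger than most of the class medians, so staying within it says little about them. In moderate the H/ACA median lay between -0.25 and -0.14, the C/D median between -0.21 and -0.11 and the scaRNA median between -0.22 and -0.16. In profound 1 these ranges were -0.10 to -0.08, -0.14 to -0.06 and -0.02 to 0.02. In profound 2 they were 0.01 to 0.04, -0.02 to 0.00 and 0.04 to 0.09. Counts at 2-fold moved with the rule, and the cause was not tested. At 1.5-fold they were 11 for moderate, 15 for profound 1, 9 for profound 2 and 6 for both profound arrays against control, and 11 for profound 1 against profound 2. All genes passed 1.5-fold in 2.06%, 7.26%, 3.24%, 1.06% and 5.78%, in the same order. The further alternatives were counted at 2-fold. With the limit at the 75th percentile of the table, which leaves 110 members, the 2-fold counts were 0 for moderate, 1 for profound 2, 0 for both profound arrays and 0 for profound 1 against profound 2. With the limit on the mean of the 4 arrays, SNORD11B drops out and both profound arrays have 0 at 2-fold. With probe sets of several symbols, moderate has 1 and profound 1 against profound 2 has 4 at 2-fold. The share of all genes under these alternatives was not computed. With 1 array per hairpin, an effect of the hairpin and one of the array cannot be told apart.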
